A study of Mus musculus with 15 samples.

Results

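White adipocytes grown from mouse mesenchymal precursor cells and kept at 37°C throughout were represented by 5 of the 15 RNA-seq libraries of the series, chosen by their label of 0 days at 31°C. The precursors, taken from the ears of C57BL/6J mice, were induced in 10% serum by a cocktail of methylisobutylxanthine (0.5 mM), the glucocorticoid dexamethasone (1 μM), the PPARγ agonist troglitazone (5 μM) and insulin at 5 μg/ml. Insulin and troglitazone were given again on day 2, serum alone was given from day 4, and total RNA was collected on day 16. The other 10 libraries, from the same differentiation protocol with a move to 31°C, were not analysed here. The labels do not say whether the 5 libraries came from separate mice or separate dishes, so the SDs below measure the spread between libraries, which may be technical. Each library is total RNA of cultured cells in bulk. A low level can thus mean few cells of a type or little RNA per cell, and these cannot be told apart.

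White adipocytes store triglyceride in a large lipid droplet coated by perilipins, take up fatty acids and glucose, and release fatty acids through lipases when energy is needed. They also secrete hormones and plasma-type proteins, such as adiponectin, adipsin and haptoglobin. The program is set by PPARγ and C/EBPα, and precursor cells that do not differentiate keep a fibroblast-like, matrix-secreting state.

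The 5 libraries held 92387376 to 133270973 counts, and replicate 1 was the deepest. At these depths a count of 0 allows up to 3 counts, or 0.0225 to 0.0325 counts per 1000000 (CPM), which covers counting error only. Log2 CPM values of any pair of libraries had a Pearson correlation across 8822 genes of 0.997 to 0.998, where genes are not independent replicates. All 10 pairs of libraries differed beyond sampling noise, with a chi-square of 9.24 to 24.5 per degree of freedom. Replicate 3 was the library farthest from the median for 29.1% of these genes, and replicate 1 was for 12.3%. Values with ± are means and SDs of the 5 libraries (n = 5). Levels are given below as transcripts per 1000000 (TPM), which divide each gene's counts by its exon length and scale the listed genes to a sum of 1000000. No cytosolic ribosomal protein gene and no gene of the mitochondrial genome is listed in the table, so these classes were not analysed here and every TPM is a share of the other genes.

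Of 18499 genes with a known length, 11709, or 63.3%, were expressed, taken as 1 TPM or more in all 5 libraries. These comprised 11364 protein-coding genes and 345 genes of other types, of which 86 were lincRNAs. Their median level was 21.0 TPM. A further 541 genes reached 1 TPM in some libraries only. In the whole table of 18804 genes, 494 had no count in any of the 5 libraries, and 1478 more had at most 3 counts in each. Without replicate 1, the deepest library, 754 genes had no count in the other 4.

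The RNA pool was concentrated in few genes. The 20 most abundant genes held 23.2% ± 0.369 (SD, n = 5) of all TPM, and the first 100 held 39.2% ± 0.322. It took 235 to 251 genes to reach 50% of TPM and 4136 to 4210 to reach 90%. By raw counts, which favour long transcripts, 398 to 426 genes were needed for 50%. Only 124 genes lay at 1000 TPM or more, and they held 41.9% of the pool. The 3745 genes between 1 and 10 TPM held 1.76%.

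**Figure D1:**
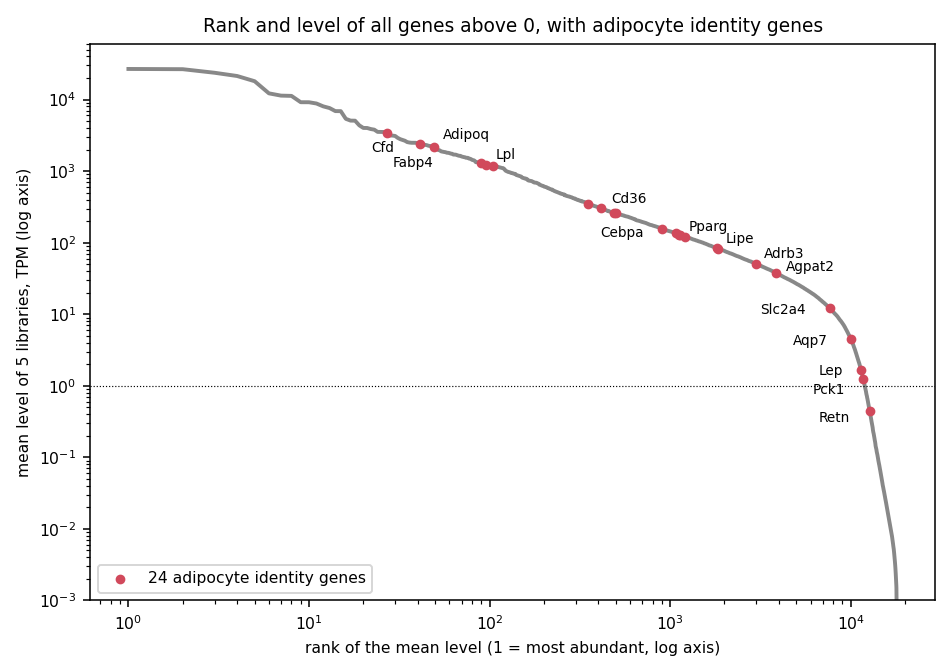
Mean level (TPM, log axis) of every gene above 0 against its rank (log axis), with the 24 adipocyte identity genes as red points and 1 TPM as a dotted line. The identity genes run from Cfd at rank 27 down to Retn at rank 12729, below 1 TPM.

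The most abundant RNAs encoded iron-handling, secreted and matrix proteins. Trf, on the minus strand of chromosome 9 at chr9:103204001-103230444 (GRCm38), encodes transferrin, the plasma iron carrier, and was measured at 27483, 25236, 28975, 26131 and 25987 TPM in replicates 1 to 5. Fth1 (chr19:9980598-9985098, plus strand), the heavy chain of the iron store ferritin, gave 26741, 26288, 25251, 27326 and 27194 TPM. The ranges of these genes overlapped, and either was first in some library. Spp1 (chr5:104435118-104441050, plus strand), which encodes the secreted phosphoprotein osteopontin, gave 24252, 21512, 21889, 24259 and 26480 TPM. Replicate 5 was the highest library for Spp1 and replicates 2 and 3 were the lowest.

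Hp (chr8:109575128-109579172, minus strand) encodes haptoglobin, the hemoglobin-binding plasma protein, and was at 21653, 20238, 21233, 21842 and 21706 TPM. Lcn2 (chr2:32384633-32388252, minus strand) encodes lipocalin 2, which binds bacterial iron carriers, and was at 17989, 17351, 17457, 18575 and 18824 TPM. Hp held rank 4 and Lcn2 rank 5 in every library. Hp and Lcn2 did not overlap, nor did Lcn2 and the next gene, Bgn. Hp was 9.68 ± 0.414 times the TPM of Adipoq, and Lcn2 8.19 ± 0.318 times.

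Below these came the proteoglycan gene Bgn at 12209 ± 285 TPM, fibronectin (Fn1) at 11350 ± 470.1 TPM, B2m, the light chain of MHC class I, at 11251 ± 539.6 TPM, and complement C3 at 9179 ± 507 TPM. Chi3l1, a secreted chitinase-like protein, was at 9172 ± 418 TPM. Ranks 11 to 15 were Eef1a1, an elongation factor, at 8804 ± 228 TPM, decorin (Dcn) at 8031 ± 224 TPM, the matrix protease stromelysin (Mmp3) at 7610 ± 472 TPM, ferritin light chain (Ftl1) at 6895 ± 209 TPM and Gas6, a ligand of the TAM receptors, at 6885 ± 354 TPM. Sparc, Mt2, Gsn, Vim and Timp1, which encode a matrix protein, a metallothionein, gelsolin, vimentin and a metalloprotease inhibitor, filled ranks 16 to 20, from 5378 TPM down to 4013 TPM. Ranks 21 to 30 ran from Comp, a cartilage matrix protein, at 4005 ± 284 TPM to Ifi27l2a, an interferon-induced gene, at 3101 ± 174 TPM. Between them lay Bsg, Cst3, Clu, Ctsd, Itm2b, Cfd, Col3a1 and Igfbp7.

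Together the 30 genes held 26.7% of TPM. Of the 29 pairs of neighbours in this order, 23 overlapped between libraries, so the exact order within them is not resolved. The list was the same 30 genes when any single library was left out. By CPM, 21 of the 30 were still among the first 30, with Fn1 first, and the short gene Ifi27l2a moved to rank 217. In the annotation 5 of the 30 shared over 10% of their exon bases with another gene: Trf 76.7%, Mt2 73.5%, Ftl1 47.9%, Ctsd 31.5% and Spp1 18.8%. None of those partners is listed in the count table. How reads of shared bases, and of processed pseudogene copies, were assigned is not given in the sources used here, so these 5 levels are uncertain. The same limit holds for every gene named below that shares over 10%, whether or not its share is given.

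**Figure D2:**
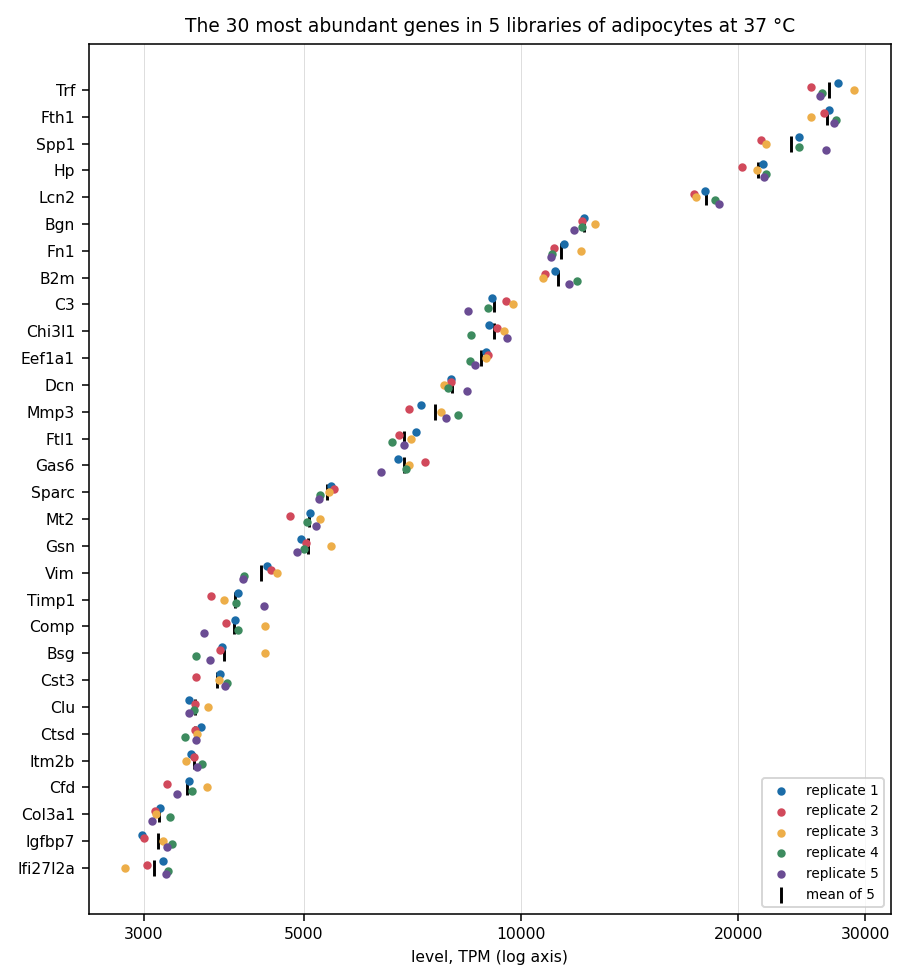
Level (TPM, log axis) of the 30 most abundant genes in each of the 5 libraries (coloured points) with the mean (black bar). The first 5 genes, from Trf at 26762 TPM to Lcn2 at 18039 TPM, lie apart from the sixth, Bgn, at 12209 TPM.

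Promoter sequences were compared by level for 14132 genes with a RefSeq promoter (GRCm38.p6). A TATA box, searched as TATAAA on the gene's strand between 45 and 16 bases before the start, stood in 2.10% of these promoters, in 1.17% of the 9251 expressed genes with a promoter and in 3.89% of the 4706 genes under 1 TPM. Among the 68 of the 100 most abundant genes with a promoter, 5 held it, or 7.35%. Among the 22 of the 30 most abundant genes with a promoter, 1 did, or 4.5%. The median number of CpG dinucleotides in the 300 bases was 21 for expressed genes, 6 for genes under 1 TPM and 13 for those 68 genes. A CCAAT or ATTGG, the same motif on either strand, stood in the 250 bases before the start of 30.9% of the 68 promoters and 36.0% of all. A match is a description of the letters and not a site in use. The 5 windows of 30 bases that hold the TATA box are shown with the match in capitals. Most of the 68 promoters, like most promoters of expressed genes, lack it. They belong to vimentin, the matrix protein Ecm1, the calcium-binding S100a4, the MHC class I gene H2-D1 and the matrix protein periostin (Postn).
Vim, chr2:13574266-13574295, plus strand: ttcctaacagtgtTATAAAagcagcgccct
Ecm1, chr3:95739585-95739614, minus strand: ggggggcgggagatagcaTATAAAgagaga
S100a4, chr3:90603725-90603754, plus strand: agggcctggcagggTATAAAtaggtcagat
H2-D1, chr17:35263049-35263078, plus strand: cgtcgccgcggacgctggtTATAAAgtcca
Postn, chr3:54361062-54361091, plus strand: ctcccacagcccagagctaTATAAActcag
The mean levels of these genes were 4360 TPM, 2342 TPM, 1887 TPM, 1866 TPM and 1701 TPM.

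Among 33 gene families with a listed gene, 32 had an expressed member. Both ferritins were expressed and summed to 33455 ± 761 TPM, the largest family sum by TPM. Without division by length the collagens came first, at 31052 CPM against 17576 CPM for the ferritins. Fth1 was 3.86 ± 0.206 times Ftl1 in TPM. Collagens were the broadest matrix family, with 31 of 43 listed genes expressed and a sum of 14125 ± 368 TPM. Col3a1 led at 3147 ± 71.7 TPM, followed by Col1a2 at 2442 ± 90.03 TPM and the microfibrillar Col6a1 at 2120 ± 96.2 TPM. The type I chains were unequal, since Col1a2 was 2.105 ± 0.0892 times Col1a1 in TPM in these libraries. Col13a1 had no count in any library.

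Proteases of the matrix and their inhibitors were both abundant. Of 22 listed matrix metalloproteinases 11 were expressed, summing to 9100 ± 479 TPM, of which Mmp3 made up 83.6%. Mmp2, a gelatinase, was at 874 ± 6.45 TPM and the membrane-bound Mmp14 at 214 ± 8.15 TPM, while Mmp1b had no count. All 4 tissue inhibitors were expressed, summing to 6227 ± 200.2 TPM. Timp1 was at 4013 ± 253 TPM, Timp2 at 1200 ± 34.98 TPM and Timp3 at 1011 ± 72.1 TPM, and Timp4 was at 4.19 ± 0.482 TPM. Cathepsins, lysosomal proteases, summed to 6192 ± 90.1 TPM, led by Ctsd at 3533 ± 66.95 TPM, Ctsb at 952 ± 10.3 TPM and Ctsz at 622 ± 8.27 TPM.

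Of 32 listed chemokine ligands 19 were expressed, summing to 5970 ± 395 TPM. The leading member was Cxcl5, which draws in neutrophils, at 1351, 1577, 1214, 1698 and 1510 TPM. Cxcl12, which retains blood precursors, was at 852 ± 43.4 TPM, and Ccl7, which draws in monocytes, at 778 ± 63.6 TPM. Replicate 3 was the lowest library for the family sum and replicate 4 the highest. Interleukins were far lower, with 8 of 21 listed genes expressed and a sum of 140.2 ± 4.96 TPM, of which Il6 gave 33.6 ± 5.78 TPM, Il16 29.4 ± 1.31 TPM and Il34 24.4 ± 1.16 TPM. Il1b and Il31 had no count.

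Among growth factor families, Fgf7, a keratinocyte growth factor, made up 92.9% of the fibroblast growth factor sum at 407 ± 24.8 TPM, ahead of Fgf2 at 8.48 ± 0.395 TPM and Fgf10 at 7.36 ± 0.797 TPM. Of 18 listed Wnt ligands 6 were expressed, led by Wnt5a at 28.3 ± 0.824 TPM, Wnt16 at 9.66 ± 0.667 TPM and Wnt5b at 5.05 ± 0.663 TPM, and Wnt3 had no count. Of the IGF-binding proteins, Igfbp7 was at 3137 ± 136 TPM, Igfbp4 at 1170 ± 32.8 TPM and Igfbp2 at 86.3 ± 17.1 TPM, and Igfbp1 had no count.

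Families of the mitochondrial respiratory chain were expressed almost whole. All 35 listed complex I genes were expressed, with a sum of 4606 ± 108 TPM, and so were all 15 ATP synthase genes, with 4795 ± 95.2 TPM. Of 16 cytochrome c oxidase genes 13 were expressed, with 4071 ± 88.8 TPM. Complex I was led by Ndufa7 at 514 ± 10.6 TPM, Ndufa2 at 249.9 ± 14.99 TPM and Ndufa3 at 222 ± 9.73 TPM. Despite its symbol Ndufa4 encodes a cytochrome c oxidase subunit, and it was left out of both sums, at 268 ± 20.4 TPM, together with its paralog Ndufa4l2, at 1496 ± 91.7 TPM. Cox8a, the widely expressed subunit VIII, was at 929 ± 9.66 TPM, with Cox6a1 at 697 ± 17.7 TPM and Cox4i1 at 598 ± 12.2 TPM. Atp5b led the ATP synthase at 794 ± 11.4 TPM, then Atp5l at 504 ± 24.3 TPM and Atp5a1 at 448 ± 8.26 TPM. Of 48 listed proteasome genes 46 were expressed, summing to 5775 ± 142 TPM, with no member above 282 TPM, the level of Psma6.

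Other broad families were metal-binding, calcium-binding and cytoskeletal. Mt2 and Mt1, the general metallothioneins, were at 5078 ± 187 TPM and 1652 ± 109.8 TPM, and the brain form Mt3 had 1 to 22 counts per library. Of 15 S100 genes 9 were expressed, led by S100a11 at 2656 ± 64.5 TPM, S100a4 at 1887 ± 80.96 TPM and S100a6 at 1571 ± 31.7 TPM. S100a4 shared 60.6% of its exon bases with another annotated gene, so its level is uncertain. Annexins summed to 4365 ± 70.8 TPM, led by Anxa2 at 1426 ± 38.7 TPM, Anxa8 at 642 ± 21.8 TPM and Anxa6 at 639 ± 3.28 TPM. Galectin 1 (Lgals1) was at 2244 ± 82.6 TPM and galectin 3 (Lgals3) at 837 ± 84.7 TPM. Lgals12, a galectin of adipocytes, was at 20.4 ± 1.44 TPM. Of the detoxifying enzymes, Aldh1a1, a retinaldehyde dehydrogenase, was at 334 ± 34.3 TPM and Gstm1, a glutathione transferase, at 479.8 ± 18.1 TPM. Families of other tissues were close to silent: 1 of 79 listed olfactory receptor genes, Olfr856-ps1 at 2.75 ± 0.389 TPM, 2 of 38 vomeronasal receptor genes and 0 of 4 taste receptor genes were expressed. Of 31 listed keratins, Krt8 at 11.2 ± 0.877 TPM and Krt19 at 1.69 ± 0.255 TPM were expressed, and of 13 crystallins Cryab, a small heat shock protein, at 180.3 ± 11.1 TPM and Crybg3 at 2.69 ± 0.1298 TPM.

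The adipocyte label was checked against 24 identity genes. Of these 22 were expressed and 15 were at 100 TPM or more, with a median of 132 TPM beside 6.74 TPM over all genes with a length. Adipoq, which encodes adiponectin (chr16:23146536-23158028, plus strand), was at 2231, 2229, 2090, 2293 and 2182 TPM. Its rank was 49. Fabp4, the fatty acid chaperone of adipocytes (chr3:10204088-10208576, minus strand), was at 2406, 2577, 2083, 2506 and 2451 TPM, and replicate 3 was its lowest library. Cfd, which encodes adipsin, a complement protease, was at 3465, 3235, 3673, 3500 and 3334 TPM, and replicate 3 was its highest. Cfd was 1.56 ± 0.115 times Adipoq in TPM.

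Genes of fatty acid uptake, synthesis and storage spanned a wide range. Lpl, the lipoprotein lipase, was at 1235 ± 66.6 TPM, Car3, a carbonic anhydrase, at 1281 ± 136 TPM and Scd1, a fatty acid desaturase, at 1189 ± 131 TPM. Scd1 was 6.07 ± 0.532 times Scd2. Cd36, a fatty acid transporter, was at 302 ± 21.1 TPM, and Dgat2, which makes the last step of triglyceride synthesis, at 352 ± 14.2 TPM, 4.99 ± 0.253 times Dgat1. Acsl1, which activates fatty acids, was at 83.6 ± 2.66 TPM, Gpd1, which supplies glycerol phosphate, at 122 ± 3.48 TPM and Agpat2, an acyltransferase, at 37.5 ± 2.43 TPM. Of the 28 genes of lipogenesis and triglyceride synthesis 24 were expressed, led by Scd1, Dgat2 and Me1, the malic enzyme that supplies NADPH, at 233 ± 7.16 TPM.

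Of 21 lipase and lipolysis genes 18 were expressed. Pnpla2, which encodes the first triglyceride lipase, was at 256 ± 4.82 TPM, its activator Abhd5 at 175 ± 6.81 TPM and Lipe, the hormone-sensitive lipase, at 82.4 ± 3.71 TPM. Adrb3, the adrenergic receptor of adipocytes, was at 50.99, 51.6, 54.3, 50.8 and 46.2 TPM, and replicate 5 was its lowest library. Abhd5, Adrb3 and Lipe shared 30.1%, 18.8% and 15.7% of their exon bases with another annotated gene.

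Lipid droplet genes were led by an inhibitor of lipolysis. G0s2, which blocks the PNPLA2 lipase, was at 929, 880.2, 978, 902 and 878 TPM. Plin4, which coats small droplets, was at 430.4 ± 12.3 TPM, the widely expressed Plin2 at 302 ± 13.2 TPM and the adipocyte Plin1 at 133, 132, 134, 139 and 136 TPM. Plin4 was 3.199 ± 0.09299 times Plin1. Cidec, which fuses droplets, was at 262 ± 9.79 TPM and Bscl2, which encodes seipin, at 128 ± 4.14 TPM. Plin3 was at 67 ± 2.702 TPM, Hilpda at 63.95 ± 5.34 TPM, Fitm2 at 16.7 ± 0.467 TPM and Cideb at 10.8 ± 1.297 TPM. Cideb shared 71.0% of its exon bases with another annotated gene and Bscl2 28.2%, so the levels of Cideb and Bscl2 are uncertain. The perilipin of oxidative tissues, Plin5, was at 2.04 ± 0.272 TPM. Cidea, the brown fat homolog of Cidec, had 7, 2, 9, 8 and 2 and Fitm1 0 to 7 counts per library.

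Of 7 listed fatty acid binding protein genes only Fabp4 and Fabp5 were expressed. Fabp4 was 9.57 ± 0.379 times Fabp5, which was at 251 ± 13.1 TPM. Fabp3, the form of heart and muscle, was at 0.931 ± 0.251 TPM with 16 to 45 counts per library, Fabp7, of brain, had 1 to 13, Fabp12 0 to 8 and Fabp9 0 to 1, and Fabp6, of the ileum, had 0 in all. Fabp1 and Fabp2 are not listed in the table.

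The identity genes at the low end were hormones and metabolic genes of mature fat. Slc2a4, the insulin-responsive glucose transporter GLUT4, was at 11.9, 13.3, 12.4, 11.3 and 11.4 TPM, and the general transporter Slc2a1 was 16.2 ± 1.29 times higher at 195 ± 9.305 TPM. Lep, which encodes leptin, was at 1.62, 2.14, 1.56, 1.55 and 1.56 TPM, with 258, 245, 197, 172 and 181 counts, and replicate 2 was the highest. Retn, which encodes resistin, was below 1 TPM in every library, with 43, 20, 38, 14 and 25 counts. Pck1, which makes glycerol precursors, was at 1.32, 1.15, 0.8999, 1.296 and 1.61 TPM and Aqp7, the glycerol channel, at 4.802, 4.14, 4.48, 4.24 and 4.67 TPM. Replicate 3 was the only library with Pck1 under 1 TPM.

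Of 33 listed genes for secreted adipocyte factors 27 were expressed, and they summed to 5.53% of TPM. Beside Hp, Lcn2, Sparc, Cfd and Adipoq, this list held the retinol carrier Rbp4 at 632 ± 22.4 TPM and chemerin (Rarres2) at 1330 ± 27.3 TPM. Rarres2 shared 39.4% of its exon bases with another annotated gene. Rbp4 and Rarres2 were named after their values were seen. Insulin signalling genes were present, with 14 of 16 expressed. Akt1, a kinase downstream of the insulin receptor, was at 169 ± 3.99 TPM and Akt2 at 121 ± 2.68 TPM, a ratio of 1.39 ± 0.0387.

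Of 35 listed transcription factors of adipogenesis 32 were expressed, and the leading members lay close together. Cebpa was at 142, 152, 154, 173 and 158 TPM, with replicate 4 highest and replicate 1 lowest. Cebpd was at 155 ± 11.97 TPM, Srebf1, which drives fatty acid synthesis genes, at 149 ± 7.44 TPM, and Pparg at 128, 132, 127, 132 and 129.6 TPM. The range of Pparg was narrow. Its partner Rxra was at 124 ± 3.49 TPM, Cebpb at 121 ± 24.9 TPM and the oxysterol receptor Nr1h2 at 107 ± 2.28 TPM. The glucocorticoid receptor Nr3c1 was at 79.4 ± 3.09 TPM, Ppard at 64.5 ± 2.13 TPM and Klf9 at 50.2 ± 1.72 TPM. The ranges of Cebpa and Cebpd overlapped, as did those of Pparg and Rxra. Ppara, the PPAR of fatty acid oxidation, was at 1.29 ± 0.156 TPM, and Pparg was 102 ± 12.99 times higher.

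Genes of brown and beige adipocytes, the heat-producing types, were tallied next. Of 26 listed genes 10 were expressed, against 63.3% of all genes, and the median was 0.450 TPM against 6.74 TPM. As a set the list thus lay below the level of all genes. Ucp1, the uncoupling protein, had 0, 0, 0, 0 and 1 counts in replicates 1 to 5, so its level was at the limit of detection. Elovl3 had 0 to 1 counts per library, Cox8b 0 to 6, Cpt1b 1 to 10, Otop1 0 to 5, Slc27a2 0 to 4 and Tbx1 0 to 4, and Ckmt2 had 0. Zic1 had 6 to 19, Ebf2 43 to 81, Cited1 1 to 14, Fgf21 0 to 13 and Ckmt1 23 to 57. Cpt1b shared 94.8% of its exon bases with another annotated gene, so its low count may not mean low expression.

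The list was not silent as a whole. Tnfrsf9, also a costimulatory receptor of T cells, was at 157, 137, 173, 133 and 167 TPM and made up 52.3% of the summed TPM. Dio2, the deiodinase that activates thyroid hormone, was at 72.01, 52.6, 68.3, 78.7 and 95.2 TPM, with replicate 5 the highest and replicate 2 the lowest. Slc36a2, an amino acid transporter, was at 30.6 ± 3.302 TPM. Prdm16, a coregulator of brown fat genes, was at 9.07, 9.21, 8.91, 9.81 and 8.68 TPM, with a narrow range. Cox7a1 was at 7.305 ± 1.98 TPM, Tmem26 at 5.72 ± 0.6901 TPM, Pm20d1 at 5.13 ± 0.321 TPM and Lhx8, a brown fat homeobox gene, at 2.07 ± 0.426 TPM. Ppargc1a, the coactivator of mitochondrial genes, was at 1.33 ± 0.102 TPM, Kcnk3 at 1.097 ± 0.212 TPM and Cited4 at 1.02 ± 0.391 TPM. Kcnk3 and Cited4 fell below 1 TPM in some libraries and do not count as expressed.

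Hox genes, which record position along the body axis, were read from 25 genes, of which 4 were expressed, all of the HoxA cluster. Hoxa2 was at 4.78, 3.91, 4.05, 4.17 and 4.47 TPM, Hoxa3 at 1.69 ± 0.316 TPM, Hoxa4 at 1.32 ± 0.0986 TPM and Hoxa5 at 1.299, 1.18, 1.07, 1.79 and 1.22 TPM. Hoxa2 was 3.36 ± 0.602 times Hoxa5. Hoxa3, Hoxa4 and Hoxa5 overlapped between libraries. Hoxa7 was at 0.787 ± 0.128 TPM, Hoxd8 at 0.451 ± 0.1603 TPM and Hoxa6 at 0.355 ± 0.0951 TPM, and every other one of the 25 was at or below 0.0485 TPM, the level of Hoxc6.

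Regulators used to tell adipose depots apart spanned a wide range. Of those described here, Tbx15 was at 37.6 ± 2.13 TPM and Meis2 at 25.8 ± 0.624 TPM. Tbx15 is known from subcutaneous fat. Of 25 listed genes of this kind 14 were expressed and 7 were at 10 TPM or more, with a median of 1.98 TPM.

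**Figure D3:**
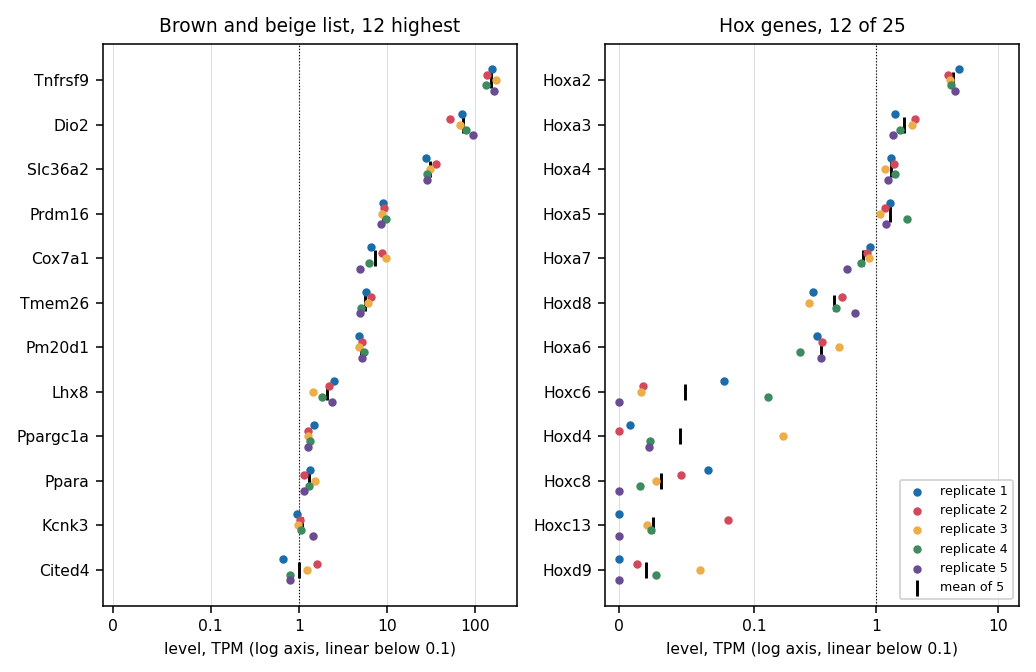
Level (TPM, log axis that is linear below 0.1) of the 12 highest genes of the brown and beige list (left) and of 12 Hox genes (right) in each of the 5 libraries (coloured points), with the mean (black bar) and 1 TPM dotted. Tnfrsf9 and Dio2 lie above 50 TPM in every library, and the Hox genes above the dotted line are Hoxa2 to Hoxa5.

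Matrix and mesenchymal genes of the precursor and stromal list were among the most abundant. Of 27 listed genes 25 were expressed and 16 were at 100 TPM or more, with a sum of 40261 ± 640 TPM and a median of 168 TPM, beside a median of 132 TPM for the adipocyte identity genes. Fn1, Dcn and Vim, general matrix and mesenchymal genes, led the list, and the precursor markers Ly6a, Pdgfra and Cd34 were at 1532 ± 65.8 TPM, 167 ± 7.73 TPM and 46.5 ± 4.96 TPM. The members not expressed were also precursor markers, Dpp4 with 0 to 12 and Pi16 with 0 to 5 counts per library. Many genes of both lists were abundant in the same libraries. Dlk1, a marker of preadipocytes that adipocytes lose, was at 17.9, 26, 27.99, 15.97 and 16.4 TPM, with replicates 2 and 3 the highest. Whether the identity and stromal RNAs came from the same cells was not tested. Cell cycle genes were low: all 16 were expressed, with a median of 3.85 TPM, led by Pcna at 74.5 ± 3.59 TPM, Rrm2 at 18.5 ± 1.93 TPM and Top2a at 9.55 ± 0.828 TPM.

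Genes of other lineages were checked with 19 lists, which name 181 genes. Of these 147 are listed with a length, some under an older symbol, and 34 are not listed in the table, among them the alpha globins, Myod1, Cldn5, C1qa and Tyrobp. Of the 147 genes 43, or 29.3%, were expressed, against 63.3% of all genes, and their median was 0.106 TPM against 6.74 TPM. At most 3 counts in each library were found for 25, and 5 had none: Myh1, Upk1b, Ins2, Pdx1 and Cdx2. In 5 lists no gene was expressed: lymphoid, mast cell, erythroid, hepatocyte, and gut and pancreas. The mast cell list rested on 2 of 7 genes and the erythroid list on 4 of 9, since the others are not listed. In 10 lists no gene reached 10 TPM.

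Smooth muscle and pericyte genes were present in part. Acta2, the smooth muscle actin that activated fibroblasts also make, was at 391, 374, 373, 346 and 339.9 TPM, Tagln at 170.3 ± 8.84 TPM, Smtn at 81.9 ± 4.65 TPM and Cnn1 at 10.8 ± 1.04 TPM. Replicate 1 was the highest library for Acta2 and replicate 5 the lowest. In the same list Myh11, the smooth muscle myosin, had 71 to 203 counts per library and Myocd, the master coactivator, 0 to 1. Cspg4 was at 113 ± 5.04 TPM, Mcam at 48.2 ± 3.05 TPM and Notch3 at 25.2 ± 1.56 TPM, whereas Rgs5, Kcnj8 and Abcc9 of the pericyte list were below 1 TPM. Tagln shared 60.9% of its exon bases with another annotated gene.

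Cartilage genes were present beyond their leading member. Comp was at 4015, 3897, 4419, 4058 and 3634 TPM, and replicate 3 was the highest library. Col2a1, the collagen of cartilage, was at 82.2, 72.1, 87.2, 70.4 and 68.6 TPM, Sox9, its regulator, at 53.1, 52.8, 54.4, 53.6 and 51.1 TPM, Col9a2 at 31.2 ± 3.37 TPM, Acan, which encodes aggrecan, at 19.96 ± 3.25 TPM, Hapln1 at 11.8 ± 1.02 TPM and Col11a2 at 10.9 ± 1.25 TPM. In all 12 of 14 cartilage genes were expressed, against 63.3% of all genes. Their median of 9.22 TPM was not far above the 6.74 TPM of all genes, and below the 21.0 TPM of expressed genes. Of 10 bone genes 7 were expressed, a share near the 63.3% of all genes, and their median of 3.42 TPM was below the 6.74 TPM of all genes. Spp1 made up 98.7% of their sum, and was 83.5 ± 11.02 times Ibsp, the bone sialoprotein, which was at 286 ± 28.7 TPM. Runx2, the osteoblast regulator, was at 14.7 ± 0.618 TPM and Alpl, a phosphatase of bone, at 12.9 ± 1.23 TPM. Sost, of osteocytes, had 0 to 8 counts per library. 

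Most listed blood and vessel genes were not expressed. The myeloid genes C1qa, C1qb, C1qc and Tyrobp are not listed in the table. Of 9 listed endothelial genes only Egfl7 was expressed, at 11.2 ± 0.969 TPM, while Cdh5 had 0 to 1 counts per library, Pecam1 13 to 50 and Kdr 4 to 11. Of 10 listed myeloid genes Cd14, an endotoxin receptor, was at 32.8 ± 3.86 TPM, Cd68, a lysosomal protein, at 15.5 ± 1.81 TPM and Lyz2 at 1.84 ± 0.2099 TPM. Ptprc, the leukocyte antigen CD45, had 0 to 5 counts per library, Csf1r 6 to 40, Itgam 1 to 16 and Emr1 10 to 42. The lymphoid list was led by Cd3d, with 6 to 15 counts, Cd8a and Foxp3, and the mast cell list by Kit, with 5 to 34. The erythroid list was led by Klf1 with 13 to 18 counts.

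A few markers stood far above the rest of their lists. In the keratinocyte and epithelial list Trp63, a p53-family factor, was at 15.96 ± 0.947 TPM and Krt8 at 11.2 ± 0.877 TPM, while Krt14 had 0 to 1 counts, Krt5 0 to 11, Cdh1 2 to 8 and Epcam 0 to 3. In the Schwann cell list S100b was at 105 ± 4.25 TPM and Mbp, which encodes a myelin protein, was also expressed, at 3.41 ± 0.305 TPM, while Sox10 had 0 to 1 counts. In the list of pluripotent and germ cell genes Sox2 was at 10.2, 12.2, 7.94, 11 and 10.3 TPM, while Pou5f1 had 0 to 8 counts and Nanog 3 to 15. Replicate 3 was the lowest library for Sox2 and replicate 2 the highest.

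Muscle, nerve and liver genes remained low. Of the skeletal muscle list Tnnt3 led at 1.95 ± 0.321 TPM, ahead of Mylpf at 1.504 ± 0.521 TPM and Actn3 at 1.12 ± 0.145 TPM. In the cardiac list Tnni3 was at 2.31 ± 0.289 TPM. Tubb3, of the neuron list, was at 3.73 ± 0.4697 TPM and Syp had 28 to 74 counts per library. Mitf led the melanocyte list at 5.55 ± 0.288 TPM and Krt19 the mesothelial list at 1.69 ± 0.255 TPM. The hepatocyte list was led by Serpina1a with 4 to 9 counts, and Alb had 1 to 13.

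**Figure D4:**
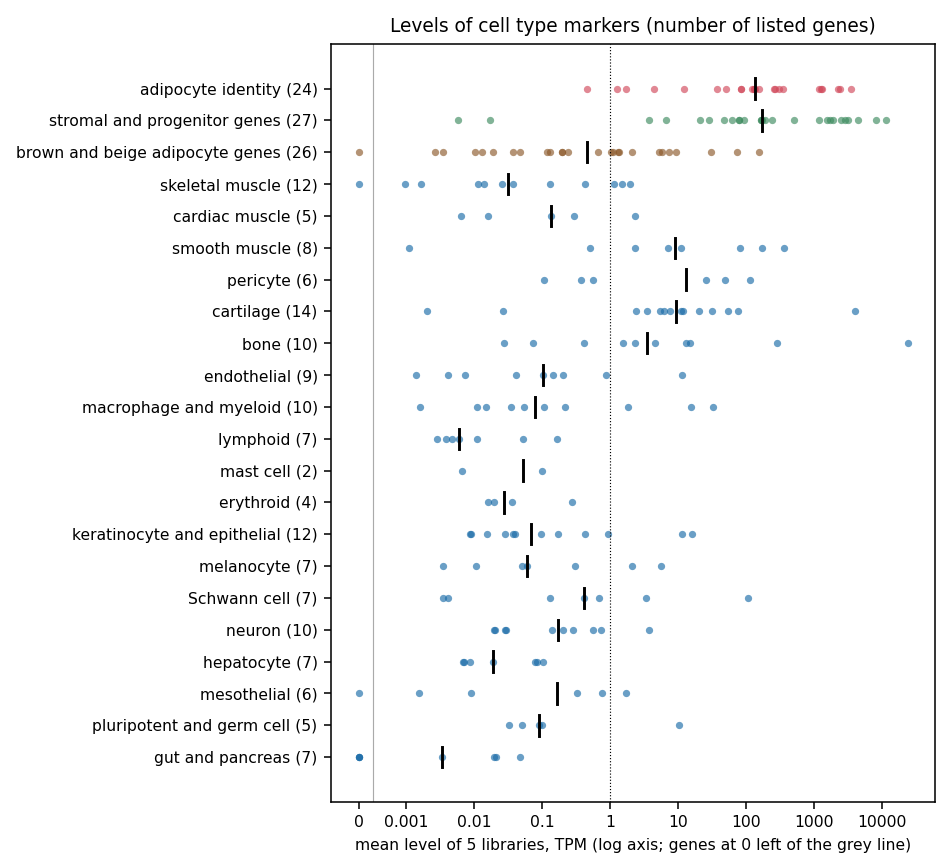
Mean level over 5 libraries (TPM, log axis) of every listed gene of the adipocyte identity (red), stromal (green), brown and beige (brown) and other-lineage lists (blue), with the list's median (black bar), 1 TPM dotted and genes at 0 left of the grey line. The identity and stromal medians, 132 and 168 TPM, lie above those of all other lists.

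The labels give no sex. Xist, the RNA of the inactive X chromosome, was at 102, 108, 116, 101 and 99.1 TPM, and of the genes on the Y chromosome Ddx3y had 0 to 1 counts per library and Eif2s3y and Uty had 0. The study's reference genes ranged from B2m at 11251 ± 539.6 TPM and Gapdh at 2217 ± 75.9 TPM through Ppia at 731 ± 27.1 TPM and Hprt at 214 ± 6.86 TPM to Tbp at 3.45 ± 0.237 TPM. The value for Tbp divides by an exon union of 13091 bases, set by an annotated transcript of 12794 bases, and a shorter transcript would give a higher value.

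The spread between libraries beyond counting error was expressed as the biological coefficient of variation (BCV), which is 10% where a gene's true level has an SD of 10% of its mean. Over the 8822 genes of mean CPM 10 or more the median BCV was 4.17%, and 90% of genes lay between 3.39% and 6.44%. Each gene's BCV was drawn toward a value shared between genes (the prior), which narrows this band and limits its lower end. Usp8, for example, had an SD of 0.631 CPM at a mean of 101.7 CPM, yet a BCV of 3.19%. Only 84 genes, or 0.952%, were over 10%. With genes down to a mean CPM of 1 included, 1360 were over 10%. For the 20 adipocyte identity genes measured the median was 4.32%, and for the 30 most abundant genes 4.35%.

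The 10 most variable genes included early response and imprinted genes. Bc1, a short noncoding RNA known from brain, had the highest BCV, 38.7%, at 13.3, 14.2, 18.2, 5.92 and 9.703 CPM. Replicate 4 was the lowest. Ptgs2, the inducible cyclooxygenase, at 75.9, 50.8, 63.4, 70.8 and 101 CPM, and Nr4a1, an immediate early receptor, at 30.5, 18.96, 24.7, 29.6 and 37.6 CPM, had BCVs of 24.1% and 23.9%. Both were highest in replicate 5 and lowest in replicate 2, as was Dio2, at 154, 110.3, 145, 168 and 204 CPM and a BCV of 21.2%. Cebpb had a BCV of 20.6%, at 48.6, 56.2, 68.1, 81.3 and 78.1 CPM, and replicate 1 was its lowest library.

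The imprinted genes Dlk1 and H19 had BCVs of 24.8% and 19.98%, and both were highest in replicate 3 and lowest in replicate 4. Aldh1l2, a mitochondrial folate enzyme, at 17.6, 16.98, 28.5, 12.7 and 17.7 CPM, had a BCV of 27.9% and was also highest in replicate 3 and lowest in replicate 4. Rsad2, an interferon-induced antiviral protein, was highest in replicate 2, at 13.2, 21.1, 8.97, 11.6 and 11.5 CPM, with a BCV of 30.3%. The matrix gene Tnn, with a BCV of 20.4%, was also highest in replicate 2. Of the 10 genes, 4 were highest in replicate 3, 3 in replicate 5 and 0 in replicate 1, and 5 were lowest in replicate 4. Without replicate 2, 6 of these 10 genes were still among the 10 most variable, and with genes down to a mean CPM of 1 included, 2 were. The least variable genes were Usp8, Cant1, March8, Nfkb2 and Trap1, with BCVs of 3.19% to 3.21%, close to the lowest value that the shared prior allows.

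**Figure D5:**
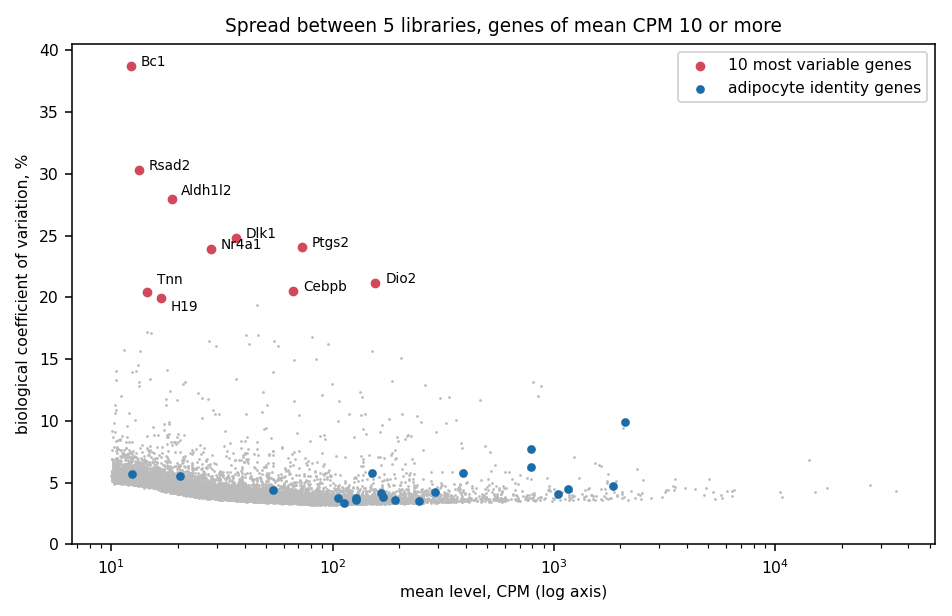
BCV (%) against mean level (CPM, log axis) of the 8822 genes of mean CPM 10 or more (grey), with the 10 most variable genes (red) and the adipocyte identity genes (blue). The red genes lie between 19.98% and 38.7%, and the blue ones lie below 10%.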

How the data were processed

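RNA of 5 libraries of adipocytes cultured at 37°C was analysed. The authors deposited raw read counts per gene, made with TopHat2 2.0.13 and Bowtie2 2.2.1 on mm10 and counted with HTSeq. The gene annotation, the strand setting and the treatment of ambiguous reads are not given in the sources used here. The count table holds 15 columns, all mapped to samples. The 10 columns of libraries at 31°C, the deposited rlog values and the DESeq2 comparison tables (fold changes and p-values) were not used. Of 18804 gene rows, 16866 were matched to GENCODE vM21 (basic set, GRCm38) by symbol and 1600 by synonym, 33 by symbols at several loci, and 305 had no length. The rows without a length held 0.416% to 0.442% of counts and were left out of TPM. TPM was counts divided by the exon-union length, scaled to 1000000 over rows with a length. CPM used TMM factors (edgeR 4.0.16, R 4.3.3). The BCV came from robust tagwise dispersions with an intercept only. Default dispersions, tested on simulated data, had shrunk variable genes too far. No group was compared, so no p-value is given. The level script and the dispersion script were tested on simulated data. Other scripts used Python 3.11.15, pandas 2.3.3 and matplotlib 3.10.9.

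The members, the 33 gene lists and the 35 families (2 without a listed gene) were chosen with earlier results of these data known. Named were the 30 genes of highest TPM, the 3 highest members and up to 4 undetected members of each list or family, all members of the identity, fatty acid binding, droplet, brown and Hox groups, the 10 most and 5 least variable genes, the 10 highest transcription factors, and other-lineage genes at 10 TPM or more. Some genes of these groups are not reported here. List genes without a row of their own were read under an older symbol where one matched. Genes with a family's symbol stem that are not its subunits (Ndufa4, Ndufa4l2, Cox4nb, Cox7a2l, Atp5s, Atp5sl, Psmc3ip) were left out after values were seen. Ndufa4, a cytochrome c oxidase subunit, was not added to the sum of that family. Defining markers given for lists that were low, the precursor markers, Mbp, Ndufa4, Ndufa4l2, Ecm1, H2-D1, Lgals12, Timp4, Mt3, Rbp4, Rarres2, Hprt, Tbp and the genes of the lipid enzyme lists outside their first 3 were named after their values were seen. Alternatives were leaving out each library, the longest transcript as length, CPM, other thresholds, other scalings, DESeq2 1.42.0 dispersions and leaving out genes that share over 10% of exon bases.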

Additional observations from a re-analysis of the deposited data

Results flagged for a closer look

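In each group of 5 libraries the distance of the most extreme library to its nearest neighbour was compared with the whole range, and 13 of 267 levels tested, or 4.87%, exceeded Dixon's critical value of 0.71. Chance flags about 1 in 20. Of the 13, 6 were in replicate 2, 4 in replicate 3, 2 in replicate 5, 1 in replicate 4 and 0 in replicate 1.

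In replicate 2, Lep was at 2.14 TPM against 1.56 to 1.62 TPM in the other libraries. S100a4 was at 2026 TPM there against 1828 to 1882 TPM and Timp3 at 1137 TPM against 962 to 998 TPM. Pdgfra was at 180.4 TPM there against 162 to 167 TPM. Cst3 was at 3539 TPM in replicate 2 against 3818 to 3909 TPM, and Ndufa7 at 495 TPM against 515 to 521 TPM.

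In replicate 3, Gsn was at 5445 TPM against 4897 to 5028 TPM and Krt19 at 2.12 TPM against 1.48 to 1.66 TPM. The sum of the ATP synthase subunits was 4630 TPM in replicate 3 against 4798 to 4863 TPM, and that of the proteasome genes 5525 TPM against 5796 to 5859 TPM. In replicate 4, Rrm2 was at 15.1 TPM against 18.8 to 19.96 TPM. In replicate 5, Kcnk3 was at 1.47 TPM against 0.952 to 1.06 TPM and Tbx15 at 33.9 TPM against 37.9 to 39.5 TPM.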

How the results depend on the processing

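Leaving out each library in turn gave 11726 to 11754 expressed genes, 664 to 754 genes with 0 counts, 23.1% to 23.3% of TPM in the first 20 genes, 236.5 to 240.5 genes for 50% of TPM, 30 of the first 30 genes, 32 families with an expressed member, 43 to 44 expressed markers of other lineages, 22 to 23 expressed identity genes, a median BCV of 3.88% to 4.48% and 60 to 95 genes over 10% BCV. Without division by length the first 20 genes held 20.04% and 50% took 410.8 genes. With the longest transcript as length 50% took 246.2 genes, and without genes that share over 10% of exon bases the first 20 held 21.9%. With a mean CPM of 1 or more the median BCV was 4.72% with 1360 genes over 10%, and with no filter 7.02% with 7619, where few counts per gene limit the estimate. DESeq2 size factors, total counts and DESeq2 dispersions gave 85, 86 and 88 genes over 10%. At 0.5 and 5 TPM there were 12312 and 9635 expressed genes, and 50 and 29 expressed markers of other lineages. Ranks of 49 of the 53 single genes followed moved by more than their spread between libraries without division by length, and 17 of 53 with the longest transcript. Without genes that share over 10% of exon bases, 42 ranks moved and 2 did not. Leaving out each library in turn moved 27 ranks and left 238. No paired analysis was possible because only 1 group was described and no groups were compared.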
